A study of Homo sapiens with 6 samples.

Results

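The miR-99/100 and miR-125 families were described here in BEAS-2B, an immortalised line of normal human bronchial epithelium. They were taken by name, as 10 mature miRNA names of the 1727 known mature names with a count in any library. Of the 10 names, 5 belong to miR-99/100 and 5 to miR-125, and 5 are guide strands (the arm of a hairpin that is mainly kept) and 5 are passenger strands (the opposite arm). Small RNA counts came from 3 libraries of cells that had received pcDNA-PRMT1, a plasmid expressing the arginine methyltransferase PRMT1, and from 3 control libraries of cells that had received the plasmid backbone pcDNA3.1, both for 48 h. All 6 libraries were of the same cell line and both groups carried a plasmid. Whether replicates are separate cultures is not in the labels, and the p-values below therefore cover the spread between these 6 libraries alone, which may be technical. Reads of PRMT1 itself were not analysed here, so its level could not be used to check the labels.

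A miRNA guides a silencing complex to messenger RNAs, and the seed, bases 2 to 8 from its 5′ end, does most of the pairing. The miR-99/100 family is one of the oldest miRNA families of animals and is known for silencing MTOR, the kinase of the growth pathway of that name, and the insulin-like growth factor receptor gene IGF1R. The miR-125 family descends from the ancestor of Caenorhabditis elegans lin-4, the first miRNA described, and its human members are known for silencing LIN28, whose protein blocks the processing of let-7, and, for miR-125b, the cell-death gene BAK1. In the human genome a member of each family flanks a let-7 gene in 3 clusters that arose from one another by duplication.

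The 5 guides are shown because their seeds define the 2 families and because a single base tells the most alike of them apart. Sequences are mature RNAs of RefSeq, read 5′ to 3′, with the seed in capitals, and all 10 names were matched.
hsa-miR-99a-5p: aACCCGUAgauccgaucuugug
hsa-miR-99b-5p: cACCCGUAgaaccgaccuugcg
hsa-miR-100-5p: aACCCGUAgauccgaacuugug
hsa-miR-125a-5p: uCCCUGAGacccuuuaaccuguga
hsa-miR-125b-5p: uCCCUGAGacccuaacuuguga
miR-99a-5p, miR-99b-5p and miR-100-5p shared the seed ACCCGUA, and miR-125a-5p and miR-125b-5p shared CCCUGAG. With positions counted from the 5′ end and miR-100-5p given first, miR-100-5p and miR-99a-5p were the same at 21 of 22 bases and differed by A16U, and the division of reads between them is uncertain where a read has an error at that base. miR-99b-5p differed from miR-100-5p by A1C, U11A, A16C and U21C. miR-125a-5p and miR-125b-5p had their first 13 bases in common.

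The 5 passengers are shown because they tell apart hairpins whose guides are the same or nearly so, again with bases 2 to 8 in capitals.
hsa-miR-99a-3p: cAAGCUCGcuucuaugggucug
hsa-miR-99b-3p: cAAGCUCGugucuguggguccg
hsa-miR-125a-3p: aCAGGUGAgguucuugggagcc
hsa-miR-125b-1-3p: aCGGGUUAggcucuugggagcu
hsa-miR-125b-2-3p: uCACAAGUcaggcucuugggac
The miR-99a and miR-99b passengers shared AAGCUCG, whereas the 3 passengers of miR-125 had 3 different stretches at bases 2 to 8. miR-125b-5p is made from 2 hairpins and its reads carry no mark of either, but the passengers of these hairpins differed at 17 of 22 positions, the bases being compared in order without gaps. Both passengers hold a common stretch toward the 3′ end, shifted in position, so this count overstates how unlike they are. The chromosome 11 hairpin of miR-125b, whose passenger had the fold change furthest from 0 among the 10 names, is shown whole with its guide and passenger in capitals.
MIR125B1 hairpin: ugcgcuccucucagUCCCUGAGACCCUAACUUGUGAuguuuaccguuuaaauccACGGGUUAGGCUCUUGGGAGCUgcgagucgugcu

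In GRCh38, the build of RefSeq and of the gene annotation used here, the chromosome 11 cluster lies on the minus strand in introns of the long noncoding RNA MIR100HG. It holds MIR100 at chr11:122152229-122152308, MIRLET7A2 at chr11:122146522-122146593 and MIR125B1 at chr11:122099757-122099844, over 52.6 kb. The chromosome 21 cluster lies on the plus strand in introns of the long noncoding RNA MIR99AHG. It holds MIR99A at chr21:16539089-16539169, MIRLET7C at chr21:16539828-16539911 and MIR125B2 at chr21:16590237-16590325, over 51.2 kb. The chromosome 19 cluster is far more compact, with MIR99B at chr19:51692612-51692681, MIRLET7E at chr19:51692786-51692864 and MIR125A at chr19:51693254-51693339 within 728 bases. These chromosome 19 hairpins lie on the plus strand in an intron of the protein-coding gene SPACA6, and on the opposite strand they overlap an exon of SPACA6P-AS.

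Libraries held 23.95 to 25.79 M counts in all, of which 11.91 to 14.43 M in PRMT1 libraries and 11.54 to 16.42 M in control libraries were known miRNA. The share of miR-21-5p in known miRNA counts was highest in control library 2, at 66.0%, and lowest in control library 3, at 49.4%. It was 53.2% to 59.1% in the other libraries. All 7 epithelial marker miRNAs were detected, with a summed level of 7999 to 8876 CPM in PRMT1 libraries and 7746 to 10086 CPM in control libraries, where CPM is the count of a name per 1 M known miRNA counts after scaling by the trimmed mean of M-values (TMM). Nearly all of this sum was miR-200a-3p, miR-200b-3p and miR-429. Over the 6 libraries, miR-200c-3p was at 40.4 to 61.6 CPM and miR-141-3p at 13.9 to 26.2 CPM. miR-205-5p was at 3.89 to 8.78 CPM and miR-203a-3p at 2.64 to 4.16 CPM. All 6 fibroblast and smooth muscle markers were detected, with a sum of 47.3 to 70.5 CPM in PRMT1 libraries and 46.1 to 72.2 CPM in control libraries, where miR-199a-3p is counted in one row with miR-199b-3p, of the same sequence. Blood markers summed to 73.2 to 99.6 CPM in PRMT1 libraries and 75.4 to 131 CPM in control libraries, and the endothelial miR-126 arms to 1665 to 2293 CPM in PRMT1 libraries and 1777 to 2071 CPM in control libraries. Muscle markers summed to 9.17 to 12.6 CPM in PRMT1 libraries and 9.98 to 13.8 CPM in control libraries, and the liver marker miR-122-5p was at 0.586 to 1.23 CPM in PRMT1 libraries and 0.720 to 1.48 CPM in control libraries. The ranges of the 2 groups overlapped for each of these sums and for miR-122-5p, but not for every single marker. Each PRMT1 library was below each control library for the epithelial miR-429 (log2 fold change -0.28). Each was above for the epithelial miR-205-5p (0.72), the fibroblast and smooth muscle marker miR-145-5p (0.85) and the blood marker miR-150-5p (0.79). Over the 6 libraries, miR-205-5p had 50 to 135 counts, miR-145-5p 10 to 24 and miR-150-5p 73 to 214. Adjusted p-values of miR-429 and these markers were 0.741 to 0.789 in edgeR, and all other listed markers overlapped. Over all 668 tested names, the groups did not overlap in 68 (10.2%). The part of the markers in the values below was not tested.

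The 10 names together held 2.53%, 2.56% and 2.65% of known miRNA counts in PRMT1 libraries, against 2.88%, 2.06% and 2.97% in control libraries. Levels spanned more than 4 orders of magnitude, from miR-100-5p, which ranked 8 of the 668 names tested, to miR-125b-2-3p, which ranked 659. The order by level was miR-100-5p, miR-99b-5p, miR-125a-5p, miR-125b-5p, miR-99a-5p, miR-99b-3p, miR-125a-3p, miR-125b-1-3p, miR-99a-3p and miR-125b-2-3p. Taken over all 6 libraries, 2 pairs of neighbours in this order overlapped, namely miR-125b-5p with miR-99a-5p and miR-125a-3p with miR-125b-1-3p, and every other neighbour was separate in every library. Mature miRNAs are of nearly the same length, so these levels compare read counts directly, although the capture of each sequence in a library was not measured here.

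**Figure D1:**
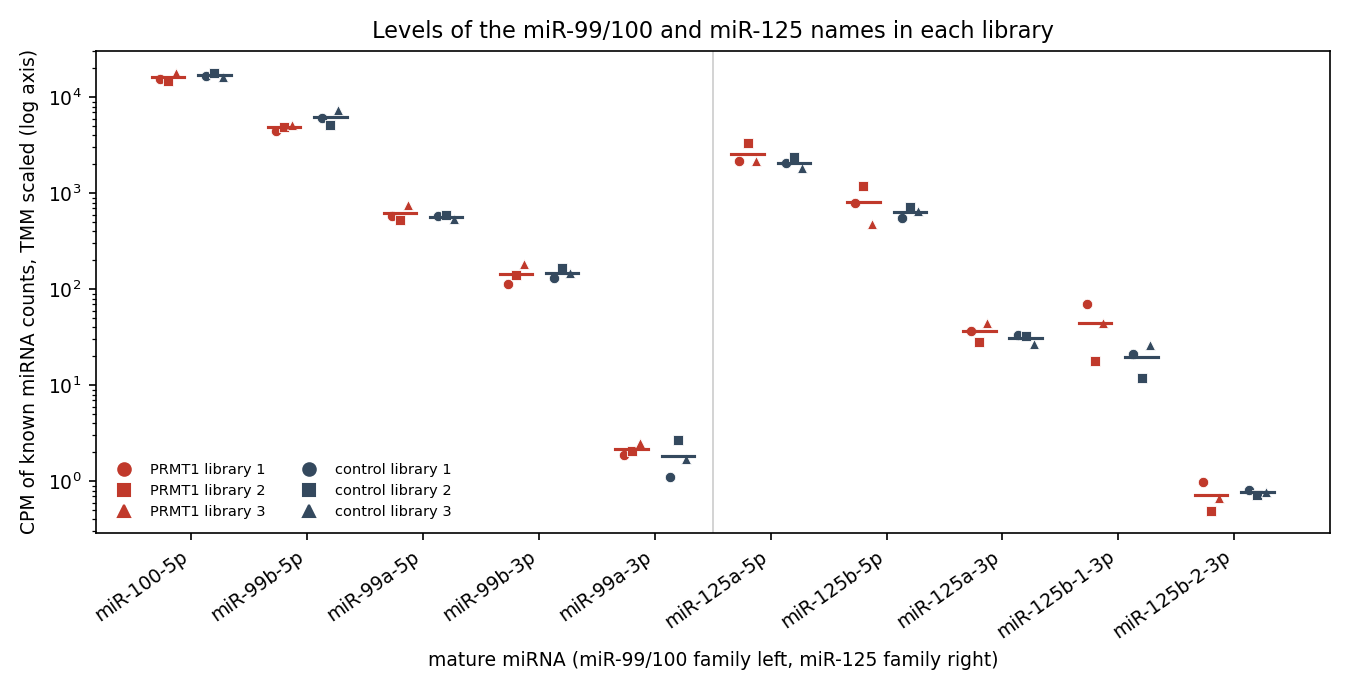
Level of each of the 10 names in CPM (log scale), with PRMT1 libraries in red left of control libraries in blue and a bar at each group's mean. Levels run from 14932 to 18027 CPM for miR-100-5p down to 0.493 to 0.976 CPM for miR-125b-2-3p, and the 2 groups overlap for every name.

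No member passed the test between PRMT1 and control libraries at an adjusted p of 0.05 in edgeR's quasi-likelihood test, and all 10 were tested. Over all 668 tested names the same test called 0 (0.0%), while an unadjusted p under 0.05 was reached by 36 names (5.39%) and by 0 of the 10. DESeq2, fitted to all 1727 names without the filter on low counts, called 4 of them. limma-voom called 0 of the 668, and no member was called by either. In all 10 members the 2 groups overlapped, whereas they did not overlap in 68 of the 668 names (10.2%), of which 36 were higher (5.39%) and 32 lower (4.79%) in PRMT1 libraries. On the log2 scale, 6 members had a fold change above 0 and 4 below, with a median of 0.17, against 360 above and 308 below with a median of 0.04 over all tested names. In a bulk library, fewer cells making a miRNA and less of it per cell cannot be told apart.

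**Figure D2:**
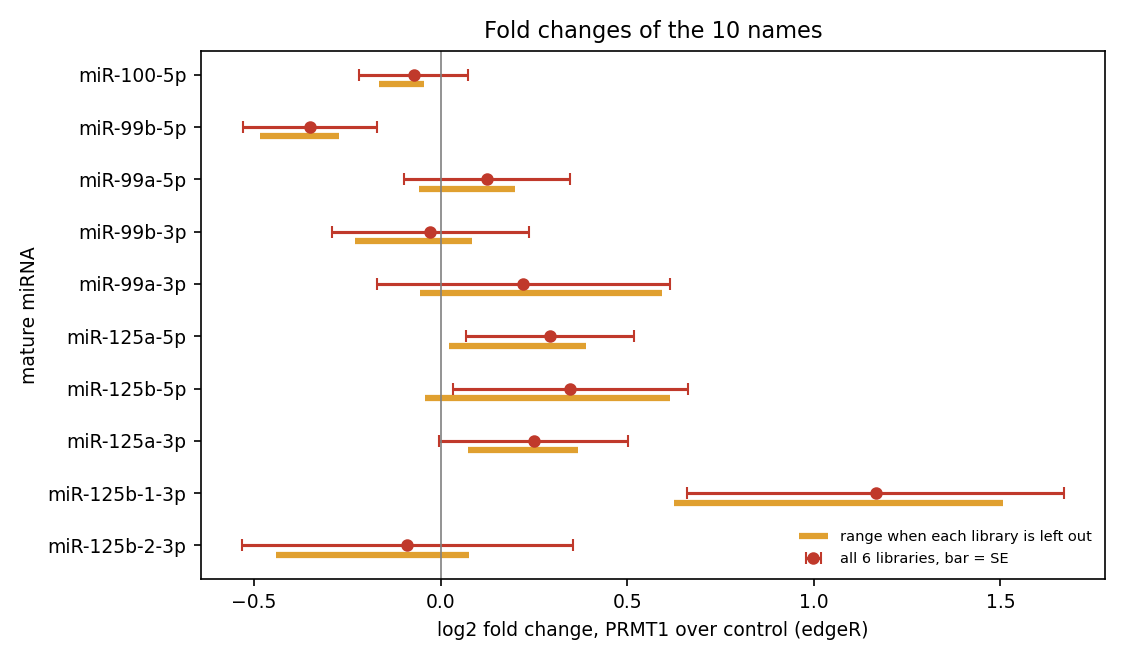
Log2 fold change of PRMT1 over control for the 10 names, with bars of 1 standard error. Each point but that of miR-125b-1-3p, at 1.17, lies between -0.35 and 0.35, and no adjusted p is below 0.741.

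Among the guides of the miR-99/100 family, miR-100-5p was by far the most abundant, at 15521, 14932 and 18021 CPM in PRMT1 libraries and 16758, 18027 and 16173 CPM in control libraries. The highest libraries of the 2 groups were nearly equal, with means of 16158 ± 1640 CPM in PRMT1 libraries and 16986 ± 948 CPM in control libraries (SD, n = 3 each), a log2 fold change of -0.07 (SE 0.15) and an adjusted p of 0.946 in edgeR. miR-99a-5p, which differs from it by 1 base, was at 578, 523 and 763 CPM in PRMT1 libraries and 582, 589 and 538 CPM in control libraries. The highest and the lowest of these were both PRMT1 libraries, and the log2 fold change was 0.12 (SE 0.22, adjusted p = 0.931 in edgeR). It changed sign, to -0.06, without PRMT1 library 3.

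miR-99b-5p, the chromosome 19 guide of the family, was at 4430, 4937 and 5157 CPM in PRMT1 libraries, against 6101, 5119 and 7276 CPM in control libraries. The PRMT1 libraries were the lower ones except that PRMT1 library 3 stood just above control library 2. Means were 4841 ± 373 CPM in PRMT1 libraries and 6165 ± 1080 CPM in control libraries (SD, n = 3 each), a log2 fold change of -0.35 (SE 0.18) with an adjusted p of 0.741 in edgeR. Without control library 2 the log2 fold change was -0.48 with an adjusted p of 0.451 in edgeR, where all alternatives gave 0.374 to 0.9999. Without control library 3, the highest, it was -0.27 with an adjusted p of 0.696 in edgeR. The 3 guides that carry ACCCGUA summed to 21621 ± 2010 CPM in PRMT1 libraries and 23721 ± 274 CPM in control libraries (SD, n = 3 each), and the groups overlapped.

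Within that sum, miR-100-5p was 75.6%, 73.2% and 75.3% in PRMT1 libraries and 71.5%, 76.0% and 67.4% in control libraries. miR-99b-5p made up 21.6%, 24.2% and 21.5% in PRMT1 libraries, against 26.0%, 21.6% and 30.3% in control libraries. The remainder was miR-99a-5p, at 2.82%, 2.57% and 3.19% in PRMT1 libraries and 2.48%, 2.48% and 2.24% in control libraries. For miR-99a-5p, each PRMT1 share was above each control share, although the level of miR-99a-5p itself overlapped between the groups. Shares were not tested, and 68 of the 668 tested names (10.2%) had levels that did not overlap. This share rests largely on the same counts as the ratio of miR-100-5p to miR-99a-5p below, so the 2 are not separate observations.

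For the miR-125 guides, miR-125a-5p was at 2155, 3342 and 2179 CPM in PRMT1 libraries and 2048, 2386 and 1827 CPM in control libraries. PRMT1 library 2 held the highest value, and the other 2 PRMT1 libraries lay within the control range. The means were 2559 ± 678 CPM in PRMT1 libraries and 2087 ± 282 CPM in control libraries (SD, n = 3 each). The log2 fold change was 0.29 with an SE of 0.22 and an adjusted p of 0.789 in edgeR, and it was 0.02 without PRMT1 library 2. miR-125b-5p varied more, at 793, 1179 and 476 CPM in PRMT1 libraries against 557, 719 and 648 CPM in control libraries. Again PRMT1 library 2 was the highest, but PRMT1 library 3 was the lowest of all 6. Its means were 816 ± 352 CPM in PRMT1 libraries and 641 ± 81.2 CPM in control libraries (SD, n = 3 each), and the log2 fold change of 0.35 (adjusted p = 0.825 in edgeR) changed sign to -0.04 without PRMT1 library 2 and was 0.61 without PRMT1 library 3.

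The spread of miR-125b-5p among PRMT1 libraries was above the median of names of at least 100 CPM. Its coefficient of variation was 43.1% in PRMT1 libraries but 12.7% in control libraries. The median of the 159 tested names with a mean of at least 100 CPM was 16.0% in PRMT1 libraries and 19.3% in control libraries. Names of similar level differed in spread, with 737 ± 313 CPM for miR-30c-5p and 776 ± 42.7 CPM for miR-660-5p in PRMT1 libraries (SD, n = 3 each). The 2 guides with CCCUGAG summed to 3375 ± 1003 CPM in PRMT1 libraries and 2728 ± 332 CPM in control libraries (SD, n = 3 each), with overlap. miR-125a-5p made up 73.1%, 73.9% and 82.1% of that sum in PRMT1 libraries and 78.6%, 76.9% and 73.8% in control libraries. One further human name in RefSeq has this seed, miR-4319 of chromosome 18, and no library held a count of it.

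Passenger strands were scarce for each hairpin, but to different degrees. miR-99a-3p had 29, 25 and 30 counts in PRMT1 libraries and 15, 34 and 22 in control libraries, which is 0.325%, 0.391% and 0.328% of miR-99a reads in PRMT1 libraries and 0.189%, 0.460% and 0.317% in control libraries. The exact 95% binomial intervals of all 6 shares, which cover counting error only, ran between 0.106% and 0.642%. Its log2 fold change of 0.22 had an SE of 0.39 (adjusted p = 0.931 in edgeR), and an SE of this size leaves small changes undetectable at this depth. The passenger of the near-identical guide, miR-100-3p, was scarcer still, at 0.0578% to 0.0792% of miR-100 reads in PRMT1 libraries and 0.0543% to 0.0604% in control libraries.

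miR-99b-3p was at 114, 139 and 182 CPM in PRMT1 libraries and 130, 165 and 148 CPM in control libraries. Those levels overlapped throughout, and edgeR gave a log2 fold change of -0.03 with an SE of 0.26 (adjusted p = 0.987). As a share of miR-99b reads it was 2.50%, 2.74% and 3.40% in PRMT1 libraries and 2.09%, 3.12% and 1.99% in control libraries. The shares of the 2 groups overlapped, as control library 2 lay within the range of the PRMT1 libraries.

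miR-125a-3p was at 37.0, 28.5 and 44.8 CPM in PRMT1 libraries and 33.1, 32.8 and 26.8 CPM in control libraries. The groups overlapped, with 0.25 as the log2 fold change, an SE of 0.25 and an adjusted p of 0.848 in edgeR. Its share of miR-125a reads was 1.69%, 0.844% and 2.02% in PRMT1 libraries and 1.59%, 1.36% and 1.45% in control libraries. PRMT1 library 2 had the lowest share of the passenger, with the most of the guide and the least of the passenger among PRMT1 libraries.

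The miR-125b passengers gave the widest arm ratios of the families. miR-125b-1-3p, from the chromosome 11 hairpin printed above, was at 70.2, 17.8 and 44.9 CPM in PRMT1 libraries (1079, 217 and 537 counts) and at 20.99, 12.0 and 26.3 CPM in control libraries (286, 150 and 338 counts). PRMT1 libraries 1 and 3 were above all control libraries, while PRMT1 library 2 lay below 2 of them. The log2 fold change was 1.17 (SE 0.50), the furthest from 0 among the 10 names, with an unadjusted p of 0.0503 and an adjusted p of 0.741 in edgeR. It was 0.62 without PRMT1 library 1 and 1.51 without PRMT1 library 2, and the adjusted p lay between 0.0613 and 0.9999 over all alternatives tried, the lowest being without the filter on low counts.

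The chromosome 21 passenger miR-125b-2-3p was near the limit of detection in all 6 libraries, with 15, 6 and 8 counts in PRMT1 libraries and 11, 9 and 10 in control libraries. A count of 3, the limit that a count of 0 allows, is 0.195 to 0.251 CPM in these libraries. The sums were 29 counts in PRMT1 libraries and 30 in control libraries, with exact 95% Poisson intervals of 19.4 to 41.6 counts and 20.2 to 42.8 counts that cover counting error only. In edgeR its fold change on the log2 scale was -0.09, with an SE of 0.44 and an adjusted p of 0.983.

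Together the miR-125b passengers were 8.24%, 1.53% and 8.74% of all miR-125b reads in PRMT1 libraries and 3.77%, 1.74% and 4.01% in control libraries. The libraries numbered 2 in the labels were thus the low ones in both groups, and the exact binomial intervals of the other 4 did not reach theirs. Of the passenger reads, miR-125b-1-3p was 98.6%, 97.3% and 98.5% in PRMT1 libraries and 96.3%, 94.3% and 97.1% in control libraries, so nearly all passenger reads of miR-125b were those of chromosome 11 in both groups. How far the passengers follow the output of each hairpin was not tested.

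**Figure D3:**
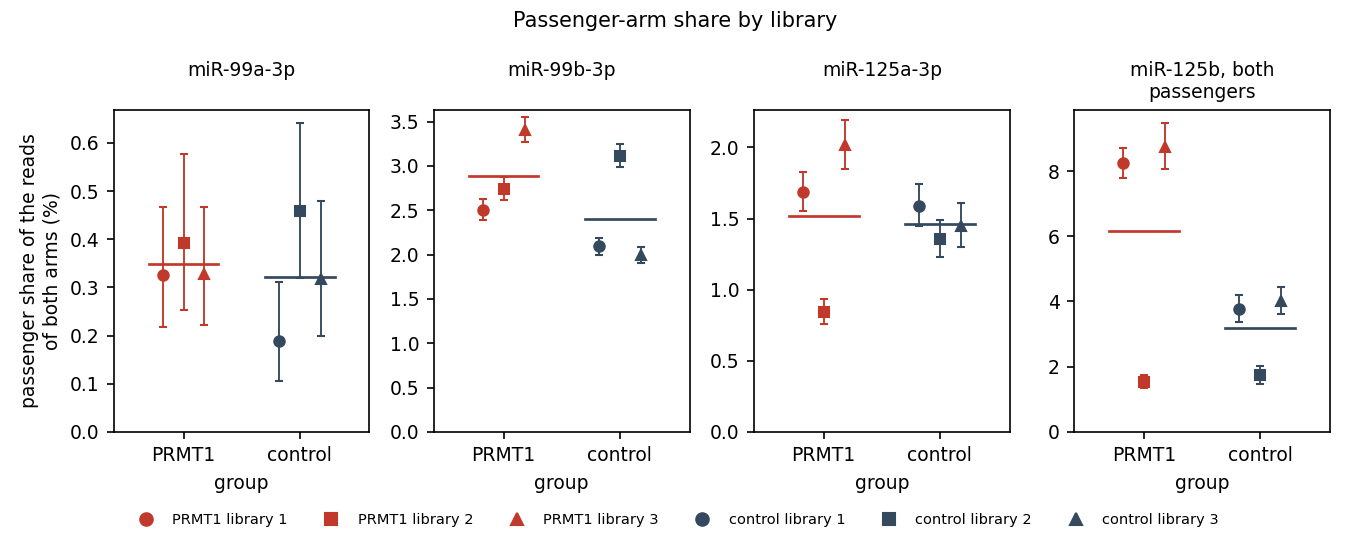
Passenger-arm share of the reads of both arms (%, linear axis from 0) in each library, PRMT1 left of control, with exact 95% binomial intervals and a bar at each group's mean. The miR-125b share is 8.24% and 8.74% in PRMT1 libraries 1 and 3 but 1.53% in PRMT1 library 2, against 1.74% to 4.01% in control libraries.

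To set this variation beside that of other hairpins, the log2 ratio of the 3p to the 5p arm was taken for all 169 hairpins with both arms tested. This comparison was added after the values were seen. The ratio of miR-125b ranged over 2.62 log2 units across the 6 libraries, which was place 7 of the 76 hairpins whose weaker arm averaged at least 10 CPM, where the median range was 1.19. miR-125a had a range of 1.27 and place 34, miR-99b a range of 0.79 and place 60, and miR-100 a range of 0.54 and place 74. The families therefore held both a hairpin with a wide arm ratio and one of the narrowest. The arm ratios of the 2 groups overlapped for these 4 hairpins, and did not in 19 of the 169 (11.2%).

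Ratios within a library do not depend on scaling, and 15 of them were compared between the groups by exact permutation, two-sided, where 3 libraries against 3 cannot give a p under 0.1. The groups did not overlap in 2 of the 15. For comparison, they did not overlap in 68 of the 668 tested names (10.2%) and in 19 of the 169 arm ratios (11.2%). The log2 ratio of miR-100-5p to miR-99a-5p was 4.75, 4.83 and 4.56 in PRMT1 libraries and 4.85, 4.93 and 4.91 in control libraries. It was lower in PRMT1 libraries by a small step, the difference being -0.18 (exact permutation p = 0.1, Benjamini-Hochberg adjusted over the 15 ratios 0.56), and it was -0.11 without PRMT1 library 3. The log2 ratio of miR-125b-1-3p to miR-125b-2-3p was 6.12, 5.06 and 5.98 in PRMT1 libraries and 4.64, 3.99 and 5.01 in control libraries, with a difference of 1.18 (exact permutation p = 0.1, adjusted 0.56). PRMT1 library 2 exceeded control library 3 by 0.05, and the denominator of each rests on 6 to 15 counts. With 5 instead of 0.5 added to both counts, the difference was 1.10, the groups overlapped and the exact permutation p was 0.2.

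The other 13 ratios overlapped between the groups. Among guides of one seed, the difference in log2 ratio was 0.26 for miR-100-5p to miR-99b-5p, 0.44 for miR-99a-5p to miR-99b-5p and -0.01 for miR-125b-5p to miR-125a-5p. Between passenger and guide it was 0.19 for miR-99a, 0.29 for miR-99b, -0.04 for miR-125a and 0.73 for miR-125b. That of miR-125b moved widely with one library left out, being 0.33, 1.59 and 0.28 without PRMT1 library 1, 2 and 3, and 0.91, 0.34 and 0.96 without control library 1, 2 and 3. The ratios over miR-99b-5p moved with control libraries 2 and 3. Without control library 2 the difference was 0.43 for miR-100-5p, 0.60 for miR-99a-5p and 0.50 for miR-99b-3p, and without control library 3 it was 0.10 for miR-100-5p, 0.28 for miR-99a-5p and 0.17 for miR-99b-3p. For miR-99b-3p it was also 0.16 without PRMT1 library 3. All 15 adjusted p-values were 0.56 or higher.

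**Figure D4:**
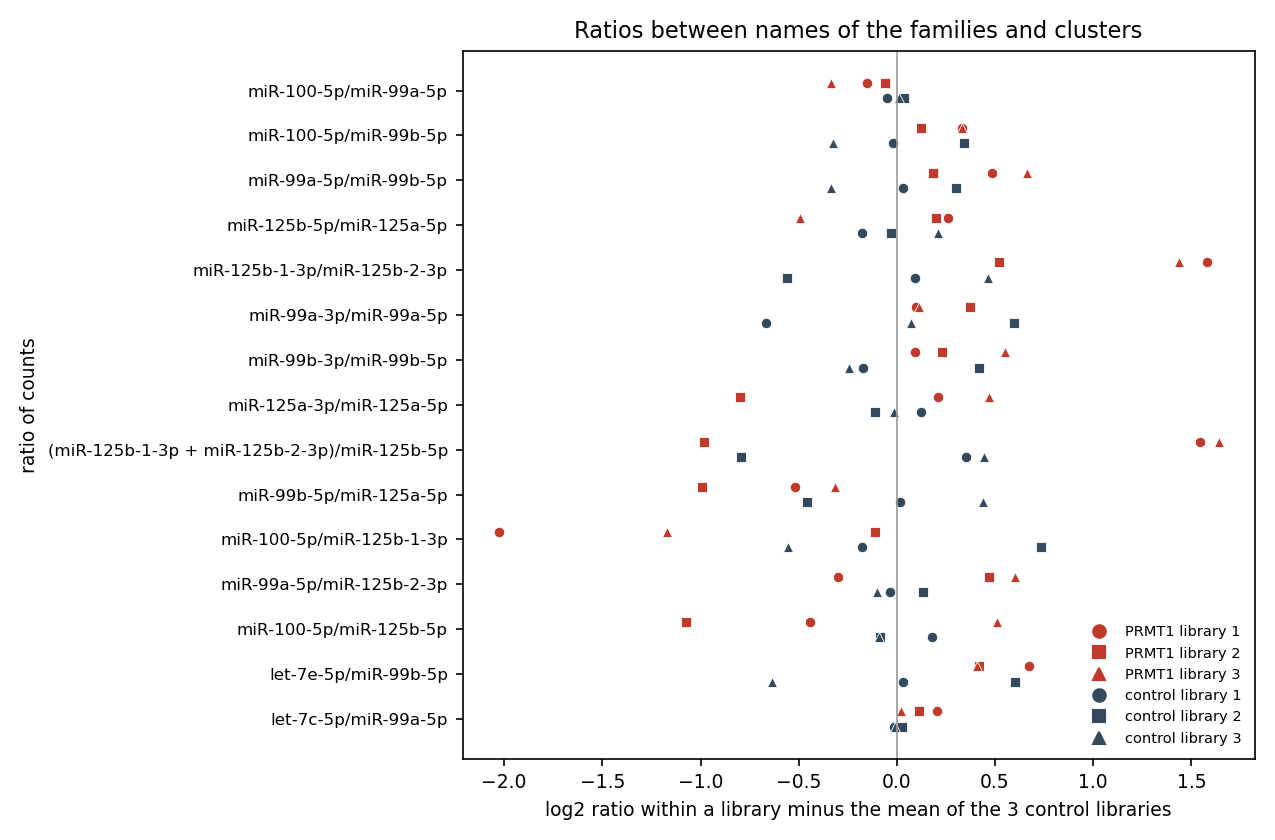
The 15 log2 ratios of counts within a library, each minus the mean of the 3 control libraries, with PRMT1 libraries in red drawn above control libraries in blue. The groups separate for miR-100-5p to miR-99a-5p, where the difference is -0.18, and for miR-125b-1-3p to miR-125b-2-3p, where it is 1.18.

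By locus, the names specific to chromosome 11 (miR-100-5p and miR-125b-1-3p) summed to 16203 ± 1645 CPM in PRMT1 libraries and 17006 ± 941 CPM in control libraries (SD, n = 3 each). Those of chromosome 19 (miR-99b and miR-125a, both arms) summed to 7582 ± 856 CPM in PRMT1 libraries and 8431 ± 794 CPM in control libraries. Those of chromosome 21 (both arms of miR-99a and miR-125b-2-3p) summed to 624 ± 126 CPM in PRMT1 libraries and 573 ± 28.0 CPM in control libraries. All 3 sums overlapped between the groups, and miR-125b-5p was in none of them because it comes from chromosomes 11 and 21.

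Several ratios between names of one locus varied across libraries. An exception was let-7c-5p to miR-99a-5p on chromosome 21, which stayed at 0.335 to 0.390 in all 6 libraries. On chromosome 19, where the hairpins lie within 728 bases, miR-99b-5p was 2.06, 1.48 and 2.37 times miR-125a-5p in PRMT1 libraries and 2.98, 2.15 and 3.98 times in control libraries. PRMT1 libraries 1 and 2 were below all control libraries and PRMT1 library 3 was above control library 2, with a log2 difference of -0.61 (exact permutation p = 0.2, adjusted 0.56) that was -0.39 without control library 3. On chromosome 11, miR-100-5p was 221, 835 and 401 times miR-125b-1-3p in PRMT1 libraries, against 797, 1497 and 614 times in control libraries, a log2 difference of -1.10 with overlap, which was -0.64 on leaving out PRMT1 library 1 and -0.74 when control library 2 was omitted. The log2 difference was -0.34 for miR-100-5p to miR-125b-5p and 0.26 for miR-99a-5p to miR-125b-2-3p, both with overlap. The last moved to 0.54, 0.15 and 0.09 on leaving out PRMT1 library 1, 2 and 3.

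Of 7 partner names in the 3 clusters, 6 were tested and 0 passed at an adjusted p of 0.05 in edgeR, with all 6 fold changes above 0. let-7, the developmental-timing miRNA between the 2 families in each cluster, was represented by passengers that mark single loci. let-7e-3p, from chromosome 19, was at 72.7, 77.5 and 74.4 CPM in PRMT1 libraries and 60.9, 61.5 and 64.3 CPM in control libraries (log2 fold change 0.27, SE 0.21, adjusted p = 0.797 in edgeR). let-7a-2-3p, from chromosome 11, was at 16.1, 14.7 and 14.8 CPM in PRMT1 libraries and 12.3, 12.6 and 11.9 CPM in control libraries (log2 fold change 0.31, SE 0.24, adjusted p = 0.789 in edgeR). For both, every PRMT1 library was above every control library, as for 36 of the 668 tested names (5.39%), but neither name was called.

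The other partners overlapped between the groups, with log2 fold changes of 0.23 for let-7c-5p, 0.13 for let-7e-5p, 0.14 for miR-100-3p and 0.01 for let-7a-5p, which further let-7a genes also make. let-7c-3p had 1 to 6 counts and was not tested. Against the guide of the same hairpin group, the log2 difference was 0.50 for let-7e-5p to miR-99b-5p and 0.11 for let-7c-5p to miR-99a-5p, both with overlap. For let-7e-5p it was 0.80 and 0.18 on leaving out control library 2 and 3, and for let-7c-5p it was 0.07 when PRMT1 library 1 was omitted. Of the relatives in the miR-10 family, whose mature sequences resemble those of miR-99/100 with an extra base in the seed, 3 of 4 names were tested and 0 passed, with log2 fold changes of 0.04 for miR-10a-5p, 0.11 for miR-10b-5p and -0.12 for miR-10a-3p.

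The tested names of at least 100 CPM whose profile over the 6 libraries was most like that of each guide were found by the root mean square difference of log2 CPM, each centred on its own mean, among 158 candidates. For miR-99a-5p these were miR-192-5p (0.051 log2 units) and let-7c-5p (0.078), the cluster partner whose hairpin is the nearest to its own. For miR-100-5p they were miR-34a-5p (0.067) and miR-10a-5p (0.069), and for miR-99b-5p miR-25-3p (0.118) and miR-769-3p (0.159). For miR-125a-5p they were miR-425-5p (0.140) and miR-193b-3p (0.181), and for miR-125b-5p miR-30c-5p (0.102) and miR-193b-3p (0.162). In the order of likeness miR-125a-5p held place 7 for miR-125b-5p (0.266), which has its seed, and place 109 for miR-99b-5p (0.447), which has its locus. In the reverse direction, for miR-125a-5p, miR-125b-5p held place 24 and miR-99b-5p place 103. Guides with ACCCGUA were not uniformly alike. For miR-99a-5p, miR-100-5p held place 8 and miR-99b-5p place 82, and for miR-100-5p, miR-99a-5p held place 14 and miR-99b-5p place 70. These are descriptions over 6 libraries that share their scaling.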

How the data were processed

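Small RNA counts of 6 BEAS-2B libraries, 3 PRMT1 and 3 control, were used as deposited. The counts deposited by the authors are whole reads per name, not normalised. Deposited TPM values matched the counts per 1 M of the library total to within 0.005, without a length term, and served for that check alone. Per the submitters' processing notes, HISAT, Bowtie2, RSEM and the build GRCh37.p13 are listed with no roles, and the treatment of reads with several matches is not given in the sources used here. Per the labels' protocols, libraries were made by messenger RNA enrichment or ribosomal RNA removal, while the tables hold small RNA. A name absent from a library was set to 0.

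Known mature names were filtered with filterByExpr (668 of 1727 names, 99.98% of counts), scaled by TMM and compared with edgeR 4.0.16 in R 4.3.3 (robust quasi-likelihood test, no block), with Benjamini-Hochberg adjustment over all 668 and a threshold of 0.05. The SE was taken as the size of the log2 fold change over the square root of F. Log2 ratios had 0.5 added to both counts and were tested by exact permutation (SciPy 1.17.1). Alternatives used RLE, upper-quartile or no scaling factors, DESeq2 1.42.0, limma-voom (limma 3.58.1), other filters and totals, a replicate block and omission of each library. The test was tried on simulated counts. Libraries of one group differed by far more than sampling noise, so all were counted. Intervals and limits of detection cover counting error only.

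The names described were all 10 members, their cluster partners, names of the same seed, the miR-10 relatives and, for each guide, the 2 most similar names by the likeness measure given with them. Members and lists were chosen with earlier results of these data known. Same-numbered libraries deviated from their group means with correlations of -0.173, 0.163 and -0.164, so the numbers were not taken as pairs. Sequences and coordinates are those of RefSeq, GRCh38.p14, and of a GENCODE annotation of GRCh38, not of the authors' build.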

Additional observations from a re-analysis of the deposited data

How the results depend on the processing

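No member was called under any alternative. The count of called names was 0 of 668 in the main edgeR fit. DESeq2, fitted to all 1727 names, called 4 (miR-548n, miR-378e, miR-378b and miR-12135). edgeR without the filter on low counts called 9 of 1727. With one library left out, 0 to 1 names were called, the 1 being miR-378e without PRMT1 library 1. The fit with the replicate block called 1 (miR-378b), and the block changed no member's call. Log2 fold changes that changed sign were that of miR-99a-5p with all classes of rows in the totals (-0.0045), of miR-99b-3p with library size only (0.030) and without both libraries numbered 2 (0.012), and of miR-125b-2-3p without both (0.0097). The log2 ratio difference of the miR-125a arms became 0.285 without both libraries numbered 2, a setting chosen after seeing the data. With one library left out, log2 fold changes that changed sign ran from -0.058 to 0.199 for miR-99a-5p, -0.055 to 0.594 for miR-99a-3p, -0.230 to 0.083 for miR-99b-3p, -0.042 to 0.614 for miR-125b-5p and -0.440 to 0.077 for miR-125b-2-3p. Ratio differences that did so ran from -0.147 to 0.229 for miR-125b-5p to miR-125a-5p, -0.140 to 0.491 for the miR-99a arms, -0.296 to 0.340 for the miR-125a arms and -0.757 to 0.033 for miR-100-5p to miR-125b-5p. The causes were not tested. The median log2 fold change of all names was 0.043, and -0.093 with all classes of rows and 0.089 with library size only. With a filter of 10 CPM in 3 libraries, 8 members were tested, miR-99a-3p and miR-125b-2-3p falling below it, and miR-125b-2-3p also fell out without miR-21-5p. Counts of 6 to 15 limit miR-125b-2-3p and the ratio built on it.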

Other observations

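The tables also hold rows for whole precursor families, outside the mature names. The lin-4 precursor family, which includes the miR-125 hairpins, had 16.0, 18.3 and 8.60 counts per 1 M of the library total in PRMT1 libraries and 10.9, 15.0 and 11.5 in control libraries. The mir-10 precursor family, which includes the miR-99/100 hairpins, had 186, 163 and 161 counts per 1 M in PRMT1 libraries and 149, 183 and 132 in control libraries. Both overlapped between the groups. As for miR-125b-5p, PRMT1 library 2 was the highest and PRMT1 library 3 the lowest in the lin-4 rows. How reads were divided between these rows and the mature names is not given in the sources used here.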
